A study of Mus musculus with 9 samples.

Results

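Ephrin-B ligands and the receptors that bind them were followed through mouse neural stem cells and tumour cells made from such cells. The genes were the 3 ephrin-B ligand genes (Efnb1, Efnb2 and Efnb3), the 5 EphB receptor genes (Ephb1, Ephb2, Ephb3, Ephb4 and Ephb6) and Epha4, an EphA receptor that also binds ephrin-B ligands. They were taken by symbol from the table of gene counts, which gave 9 genes of 47729, and all 9 passed the filter on low counts. RNA sequencing covered 9 cultures in 3 groups of 3. The LTR group (cultures 1 to 3) is tumour cells with the genotype label lgT/Ras. The NF1 group (cultures 1 to 3) is tumour cells labelled with shp53, Nf1-/- and CDK4. The NSC group (cultures 1, 3 and 5) is primary wild-type neural stem cells. All 3 groups trace to the subventricular zone, a stem cell layer beside the brain's lateral ventricles, and were kept in standard neural stem cell medium for at most 10 passages. The labels give no promoter, vector or clone for the tumour cells, and cultures of a group are told apart only by number. Nothing says that the tumour cultures arose from separate transformations, so the p-values measure the spread between these cultures, which may be technical.

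Eph receptors are receptor tyrosine kinases whose ephrin ligands are themselves bound to the membrane, so signalling needs contact between cells. A signal runs forward into the receptor-bearing cell through the kinase and its adaptors, and in reverse into the ephrin-B cell through the ligand's cytoplasmic tail. In the brain this pairing is known for axon guidance, for the sorting of cells into compartments by repulsion, and for the control of neural stem cell proliferation and migration in the subventricular zone. Ephb6 lacks kinase activity, and Ephb4 is best known as the venous partner of arterial Efnb2 in blood vessels.

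In both tumour groups 4 of the 9 genes were lower than in NSC, namely Epha4, Ephb2, Ephb1 and Efnb1, at an adjusted p under 0.05 in edgeR's quasi-likelihood test. Of all genes tested, 20.9% were lower in LTR and 13.1% in NF1 by the same rule. In NF1 the calls on Efnb1 and Ephb1 depended on single libraries, and 2 of the 9 remained without NF1 1, NF1 3, NSC 1 or NSC 5. Calls over all genes in those fits were 1752 to 2373, beside 3631 with all libraries. Efnb2 was the most abundant of the 9 per kilobase of exon in every group and did not pass the test in any comparison. Ephb4 had the next highest mean in both tumour groups and did not pass either. No gene of the set was called higher in a tumour group, beside 14.9% of all genes in LTR and 10.1% in NF1.

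The genes were first checked for where they lie and whether neighbours could share their reads. Each is protein coding and has a chromosome of its own in GRCm38: Efnb1 (ENSMUSG00000031217) at X:99136130-99148991, Efnb2 (ENSMUSG00000001300) at 8:8617434-8661242, Efnb3 (ENSMUSG00000003934) at 11:69554092-69560205, Ephb1 (ENSMUSG00000032537) at 9:101922128-102354693, Ephb2 (ENSMUSG00000028664) at 4:136647539-136835988, Ephb3 (ENSMUSG00000005958) at 16:21204755-21223305, Ephb4 (ENSMUSG00000029710) at 5:137350109-137378669, Ephb6 (ENSMUSG00000029869) at 6:41605482-41620509 and Epha4 (ENSMUSG00000026235) at 1:77367185-77515088. Exon bases shared with another annotated gene were found for Ephb1, which shares 2.17% of its exon bases with the opposite-strand noncoding RNA Gm26846, and Ephb4, which shares 0.71% with the opposite-strand gene Zan. The sources used here do not say whether the counting used strand, so reads in those shared bases cannot be assigned.

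The promoter windows of Efnb2, the most abundant of the genes, and of the 4 genes that were lower are shown, so that the genes which passed the test can be read beside one that did not. Each window is the 250 bases before the gene's annotated start, from RefSeq on GRCm38.p6, written 5′ to 3′ in the direction of the gene. Capitals mark every match, on either strand, to 7 motifs, which are GGGCGG for the SP1 family of factors, TATAAA for the TATA box, CCAAT for the motif of that name, TGANTCA for AP-1, CCGGAAG for ETS factors, TGGGAA for RBPJ, the Notch pathway factor, and ACAATG for SOX factors.
Efnb2 promoter, chr8:8661243-8661492, minus strand: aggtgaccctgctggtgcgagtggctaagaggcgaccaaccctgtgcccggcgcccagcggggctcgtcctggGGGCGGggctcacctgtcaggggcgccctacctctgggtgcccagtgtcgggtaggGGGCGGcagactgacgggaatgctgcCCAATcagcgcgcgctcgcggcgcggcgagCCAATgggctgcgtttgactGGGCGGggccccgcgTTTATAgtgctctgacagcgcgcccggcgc
Efnb1 promoter, chrX:99135811-99136060, plus strand: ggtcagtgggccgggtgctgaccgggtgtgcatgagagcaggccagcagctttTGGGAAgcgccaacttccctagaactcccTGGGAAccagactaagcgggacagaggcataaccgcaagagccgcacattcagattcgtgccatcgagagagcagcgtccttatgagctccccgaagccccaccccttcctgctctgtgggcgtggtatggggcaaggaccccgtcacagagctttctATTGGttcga
Ephb1 promoter, chr9:102354694-102354943, minus strand: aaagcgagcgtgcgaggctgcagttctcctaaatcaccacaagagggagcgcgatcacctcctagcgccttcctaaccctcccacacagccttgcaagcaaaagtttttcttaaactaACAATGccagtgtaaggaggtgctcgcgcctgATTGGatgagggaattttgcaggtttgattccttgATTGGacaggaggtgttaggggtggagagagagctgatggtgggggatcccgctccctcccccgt
Ephb2 promoter, chr4:136836013-136836262, minus strand: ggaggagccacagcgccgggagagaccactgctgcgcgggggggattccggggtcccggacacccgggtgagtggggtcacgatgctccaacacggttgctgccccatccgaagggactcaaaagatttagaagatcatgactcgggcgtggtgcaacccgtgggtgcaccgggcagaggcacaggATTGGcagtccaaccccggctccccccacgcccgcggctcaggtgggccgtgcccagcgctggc
Epha4 promoter, chr1:77515089-77515338, minus strand: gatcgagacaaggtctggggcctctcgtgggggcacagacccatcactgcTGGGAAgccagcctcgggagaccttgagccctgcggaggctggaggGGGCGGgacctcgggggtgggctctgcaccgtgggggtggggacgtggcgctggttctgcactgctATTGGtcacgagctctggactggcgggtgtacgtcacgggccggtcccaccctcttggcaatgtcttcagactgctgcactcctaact
The Efnb2 window held 27 CpG dinucleotides, more than 91.4% of the 32851 windows, whose median was 6. It carried the SP1 motif at 3 places, the CCAAT motif at 2 and the TATA box once, on the strand opposite to the gene, 30 bases before the start. The Ephb2 window held 20 CpG, Epha4 14, Efnb1 13 and Ephb1 10. Epha4 carried the SP1, CCAAT and RBPJ motifs once each. Efnb1 carried the RBPJ motif at 2 places and the CCAAT motif once, Ephb1 the CCAAT motif at 2 places and the SOX motif once, and Ephb2 the CCAAT motif once. Among all windows 32.7% held the SP1 motif, 33.8% the CCAAT motif, 21.6% the RBPJ motif, 12.4% the TATA box, 10.7% the SOX motif, 6.9% the ETS motif and 6.7% the AP-1 motif. The CCAAT motif was thus present in all 5 windows, and the TATA box in Efnb2 alone of these. A match describes letters and was not tested for any effect on the counts. Windows for Ephb3, Ephb4 and Ephb6 were also matched, 8 of the 9 genes in all. The CCAAT motif was present in the Ephb4 window and absent from those of Ephb3 and Ephb6. None of the 8 held the AP-1 motif.

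Total counts ran from 28600479 to 34230788 in the tumour libraries and from 35543564 to 57231024 in NSC. Levels are given in CPM, a gene's counts divided by the library total and scaled by TMM factors, and a floor of 3 counts lay between 0.0541 CPM in NSC 3 and 0.114 CPM in LTR 2. The file headers name one lane for all NSC libraries and another for all tumour libraries, so the lane cannot be told apart from the contrast of tumour cells with NSC. NF1 2 stood apart, with correlations of log CPM of 0.926 and 0.899 with NF1 1 and NF1 3 against 0.976 between those. It correlated at 0.87 to 0.876 with the NSC libraries, while NF1 1 and NF1 3 did so at 0.776 to 0.808. Among NSC libraries NSC 3 was the least alike, at 0.95 and 0.945 with NSC 1 and NSC 5 against 0.987 between those. Trp53, the target of shp53, measured 217, 151 and 221 CPM in the libraries labelled NF1, against 107, 114 and 101 CPM in NSC (log2 fold change 0.87 ± 0.2 SE, edgeR quasi-likelihood adjusted p = 0.0141). It measured 223, 281 and 255 CPM in LTR (1.23 ± 0.2 against NSC, adjusted p = 0.00258), whose label does not name it. Trp53 mRNA goes against what the shp53 label would lead to, so NF1 here always means the libraries labelled NF1. Nf1 measured 59.0, 97.2 and 40.1 CPM in those libraries, against 110, 82.5 and 114 CPM in NSC (-0.64 ± 0.35, adjusted p = 0.205), and Cdk4 measured 795, 393 and 1120 CPM in them, against 334, 456 and 325 CPM in NSC (1.05 ± 0.34, adjusted p = 0.053). In LTR the difference from NSC was -0.78 ± 0.35 for Nf1 (adjusted p = 0.107) and 1.41 ± 0.35 for Cdk4 (adjusted p = 0.0135). Of 10 neural stem cell markers, Sox2, Nes and Pax6 had counts in every library, and the summed level of the 10 ran from 743 to 1240 CPM in LTR, from 828 to 3420 CPM in NF1 and from 6060 to 8280 CPM in NSC. Hes5 and Slc1a3 were at 0 to 0.114 CPM in LTR. Pax6 did not follow the sum, at 40.4 to 45.3 CPM in LTR and 21.5 to 47.1 CPM in NF1, against 18.1 to 27.9 CPM in NSC.

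**Figure D1:**
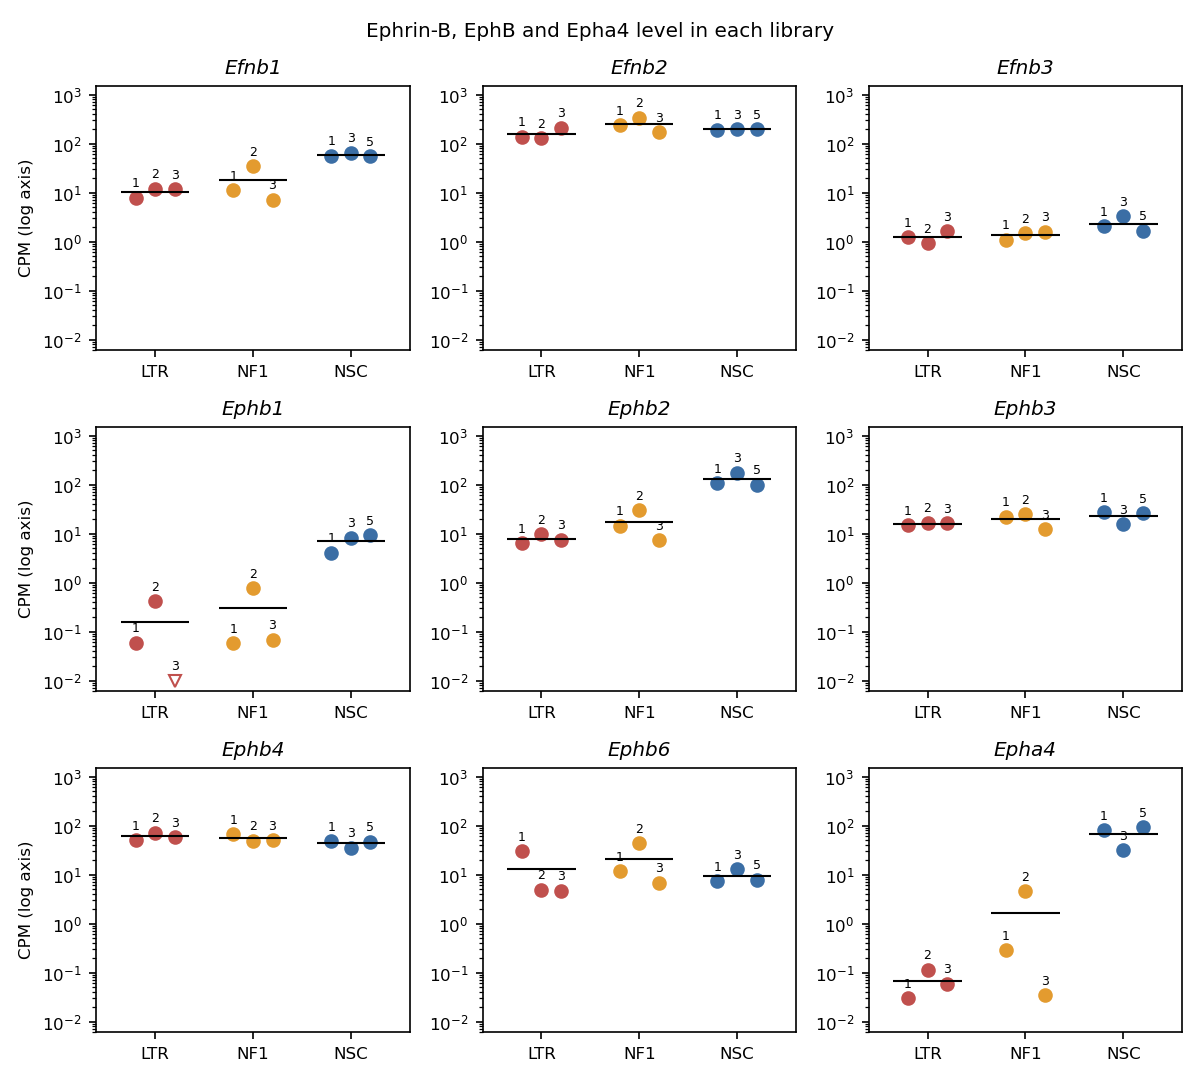
Level of each of the 9 genes in each library, in CPM on a log axis; points are single cultures numbered as in the labels, the bar is the group mean, and the open triangle at the bottom marks Ephb1 in LTR 3, which had no count. Epha4, Ephb2, Ephb1 and Efnb1 lie lower in all 6 tumour libraries than in any NSC library, while Efnb2 overlaps between all groups.

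Efnb2 encodes a transmembrane ligand of EphB receptors and of Epha4, and its difference from NSC passed the test in neither tumour group. Efnb2 measured 138.8, 130.6 and 210.1 CPM in LTR 1, 2 and 3, and 236.6, 334.9 and 172.2 CPM in NF1 1, 2 and 3, against 192.6, 198.2 and 199.1 CPM in NSC 1, 3 and 5. The highest tumour library, NF1 2, lay above all NSC libraries and the lowest, LTR 2, below them all, and the groups overlapped. LTR averaged 159.8 ± 43.7 CPM, NF1 247.9 ± 81.9 CPM and NSC 196.6 ± 3.57 CPM (SD, n = 3 each). The difference from NSC was -0.30 ± 0.27 in LTR (log2 ± SE, edgeR quasi-likelihood adjusted p = 0.408) and 0.33 ± 0.27 in NF1 (adjusted p = 0.389). Between the tumour groups it was 0.63 ± 0.27 for NF1 over LTR, with an unadjusted p of 0.0434 and an adjusted p of 0.478. The 3 NSC libraries lay within a few CPM of each other, while the tumour libraries were spread more widely.

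Efnb1, the X-linked ephrin-B ligand, was lower in both tumour groups. Efnb1 measured 7.83, 11.94 and 11.76 CPM in LTR 1, 2 and 3, and 11.16, 34.83 and 7.10 CPM in NF1 1, 2 and 3, against 57.01, 64.7 and 54.6 CPM in NSC 1, 3 and 5. All 6 tumour libraries lay below every NSC library, and NF1 2 was the nearest to them. It fell 5.59-fold in LTR (-2.48 ± 0.53, adjusted p = 0.00763) and 3.32-fold in NF1 (-1.73 ± 0.51, adjusted p = 0.038). The NF1 call was lost on leaving out LTR 3 (adjusted p = 0.0517), NF1 1 (0.122), NF1 3 (0.0578), NSC 1 (0.0896), NSC 3 (0.0686) or NSC 5 (0.0829), and in a fit of only the 6 libraries compared (0.0724), with 0.000267 to 0.122 over all alternatives. Without NF1 2 the NF1 difference was 6.38-fold (-2.67, adjusted p = 0.000267).

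Efnb3, the ligand known from the midline of the spinal cord, was the scarcest of the ligands per kilobase of exon in every group. Efnb3 measured 1.22, 0.916 and 1.64 CPM in LTR 1, 2 and 3, and 1.10, 1.47 and 1.60 CPM in NF1 1, 2 and 3, against 2.07, 3.29 and 1.66 CPM in NSC 1, 3 and 5. The tumour libraries lay below the NSC libraries with no overlap, by as little as 1.64 CPM in LTR 3 against 1.66 CPM in NSC 5. Neither difference passed the test (-0.89 ± 0.44 in LTR, adjusted p = 0.135, and -0.75 ± 0.43 in NF1, adjusted p = 0.233).

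Because the ligands share receptors, their make-up was read per kilobase of exon, which allows levels of different genes to be set side by side. Efnb2 made up 86.9 ± 2.87% of the summed ephrin-B level in LTR and 87.9 ± 4.87% in NF1, against 61.8 ± 2.32% in NSC (SD, n = 3 each). Its lowest share in a tumour library was 82.2% (NF1 2) and its highest share in an NSC library 64.0% (NSC 5), so the ranges lay apart. Efnb1 made up 11.6 ± 3.06% in LTR and 11.0 ± 5.24% in NF1, against 36.6 ± 1.83% in NSC. The summed ephrin-B level was 26.8 ± 6.77 CPM per kb in LTR, 41.7 ± 16.2 in NF1 and 46.4 ± 1.95 in NSC. The shares were not tested, and whether a lower level reflects fewer cells that express a gene or less RNA per cell cannot be told apart in these bulk libraries.

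**Figure D2:**
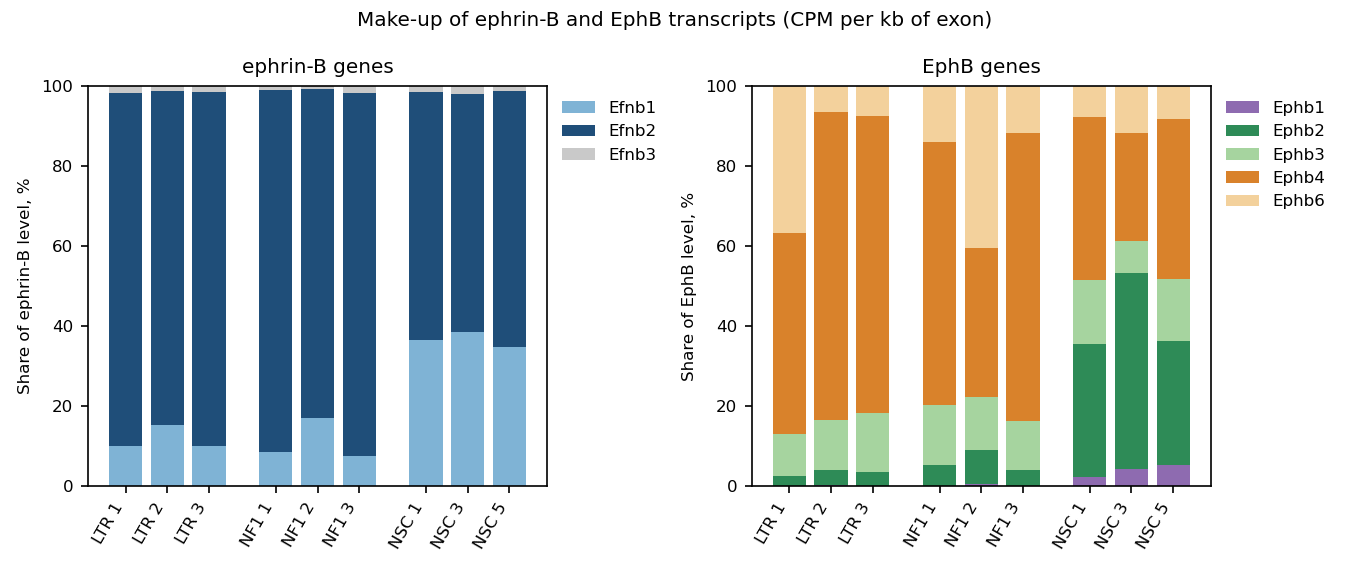
Share of each gene in the summed level of its family, in percent, from CPM per kb of exon, for the 3 ephrin-B genes (left) and the 5 EphB genes (right); each bar is one library. Efnb2 fills 82.2% to 90.8% of the ephrin-B level in the tumour libraries and 59.4% to 64.0% in NSC, and Ephb2 fills at most 8.49% of the EphB level in a tumour library and at least 31.0% in an NSC library.

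Ephb2, an EphB receptor of axon guidance and of cell positioning, was lower in both tumour groups. Ephb2 measured 6.38, 9.65 and 7.55 CPM in LTR 1, 2 and 3, and 14.63, 30.22 and 7.41 CPM in NF1 1, 2 and 3, against 106.8, 176.2 and 99.2 CPM in NSC 1, 3 and 5. Every tumour library lay below every NSC library, with NF1 2 the highest among the tumour libraries and NSC 3 the highest of all. It fell 16.2-fold in LTR (-4.02 ± 0.51, adjusted p = 0.00128) and 7.31-fold in NF1 (-2.87 ± 0.48, adjusted p = 0.00447). Both calls were kept under all 19 alternatives run, and without NF1 2 the NF1 difference was 11.5-fold (-3.52, adjusted p = 0.000298).

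Ephb1, another EphB receptor, was at the limit of detection in most tumour libraries. Ephb1 had 2, 11 and 0 counts in LTR 1, 2 and 3 (0.0593, 0.42 and 0 CPM), and 2, 24 and 2 counts in NF1 1, 2 and 3 (0.058, 0.768 and 0.0683 CPM), against 4.10, 8.23 and 9.17 CPM in NSC 1, 3 and 5. The count of 0 in LTR 3 allows a level of up to 0.0896 CPM, and the NSC libraries all lay above the tumour libraries. The fitted difference was -5.53 ± 1.32 in LTR (adjusted p = 0.0121) and -4.57 ± 1.24 in NF1 (adjusted p = 0.0278). With so few counts its size depends on single libraries. In LTR it was -7.65 without LTR 2 and -4.79 without LTR 3, and in NF1 it was -6.75 without NF1 2 (adjusted p = 0.00235). The NF1 call was lost without NF1 1 (adjusted p = 0.0825), NF1 3 (0.0668), NSC 1 (0.056) or NSC 5 (0.0751), with 0.000297 to 0.0825 over all alternatives.

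Ephb4, the receptor that prefers Efnb2 among the ephrins, had the highest mean of the 6 receptors per kilobase of exon in both tumour groups, with libraries that overlapped those of Ephb6 in NF1. Ephb4 measured 50.3, 71.9 and 57.9 CPM in LTR 1, 2 and 3, and 67.5, 48.8 and 50.7 CPM in NF1 1, 2 and 3, against 48.2, 35.6 and 47.1 CPM in NSC 1, 3 and 5. All 6 tumour libraries lay above every NSC library, but NF1 2 exceeded NSC 1 by less than 1 CPM. Neither difference passed the test (0.46 ± 0.22 in LTR, adjusted p = 0.127, and 0.35 ± 0.22 in NF1, adjusted p = 0.267).

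Ephb3 and the kinase-inactive Ephb6 overlapped between the groups. Ephb3 measured 15.0, 16.7 and 16.3 CPM in LTR 1, 2 and 3, and 21.9, 24.9 and 12.3 CPM in NF1 1, 2 and 3, against 27.4, 15.5 and 26.3 CPM in NSC 1, 3 and 5. Its difference was -0.52 ± 0.32 in LTR (adjusted p = 0.217) and -0.22 ± 0.32 in NF1 (adjusted p = 0.629), and the LTR value passed only with both NF1 2 and NSC 3 left out (-0.69, adjusted p = 0.049). Ephb6 measured 29.8, 4.96 and 4.72 CPM in LTR 1, 2 and 3, and 11.7, 43.3 and 6.83 CPM in NF1 1, 2 and 3, against 7.41, 12.78 and 7.91 CPM in NSC 1, 3 and 5. LTR 1 and NF1 2 thus lay above all NSC libraries while LTR 2, LTR 3 and NF1 3 lay below them. The Ephb6 difference was 0.49 ± 0.83 in LTR (adjusted p = 0.664) and 1.14 ± 0.84 in NF1 (adjusted p = 0.344). It changed sign without LTR 1 in LTR (-0.95) and was near 0 without NF1 2 in NF1 (-0.0032).

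Per kilobase of exon, Ephb2 made up 3.24 ± 0.78% of the summed EphB level in LTR and 5.87 ± 2.37% in NF1, against 37.7 ± 9.82% in NSC. Ephb4 made up 67.2 ± 14.6% in LTR and 58.3 ± 18.5% in NF1, against 35.9 ± 7.79% in NSC. Its share of 37.2% in NF1 2 lay within the NSC range of 26.9% to 40.7%, but by counts, with no division by length, it was 33.0% in NF1 2 against 14.3% to 24.9% in NSC. Ephb1 made up 0.112 ± 0.162% in LTR and 0.163 ± 0.195% in NF1, against 3.86 ± 1.45% in NSC. By counts Ephb2 made up 8.11% in LTR and 14.2% in NF1, against 59.5% in NSC. The summed EphB level was 19.5 ± 2.44 CPM per kb in LTR, 21.8 ± 6.55 in NF1 and 26.5 ± 1.77 in NSC. These shares and sums were not tested.

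Epha4, which binds ephrin-A as well as ephrin-B ligands and is known from axon repulsion and neural precursors, showed the largest fitted difference of the 9 genes in both tumour groups. Epha4 had 1, 3 and 2 counts in LTR 1, 2 and 3 (0.0297, 0.114 and 0.0597 CPM), and 10, 142 and 1 counts in NF1 1, 2 and 3 (0.29, 4.55 and 0.0341 CPM), against 3029, 1754 and 3446 counts in NSC 1, 3 and 5 (80.2, 31.7 and 92.4 CPM). Every tumour library lay far below every NSC library, and 142 of the 153 NF1 counts came from NF1 2. The 6 LTR counts carry an exact Poisson 95% interval of 2.2 to 13.1, which covers counting error only. The fitted difference was -9.96 ± 1.62 in LTR (adjusted p = 0.00276) and -5.39 ± 1.23 in NF1 (adjusted p = 0.0145), and both calls were kept under all 19 alternatives. Without NF1 2 the NF1 difference was -8.61 (adjusted p = 9.93e-05). Per kilobase of exon Epha4 stood above 2.8% of the tested genes in LTR and 13.7% in NF1, against 63.9% in NSC.

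**Figure D3:**
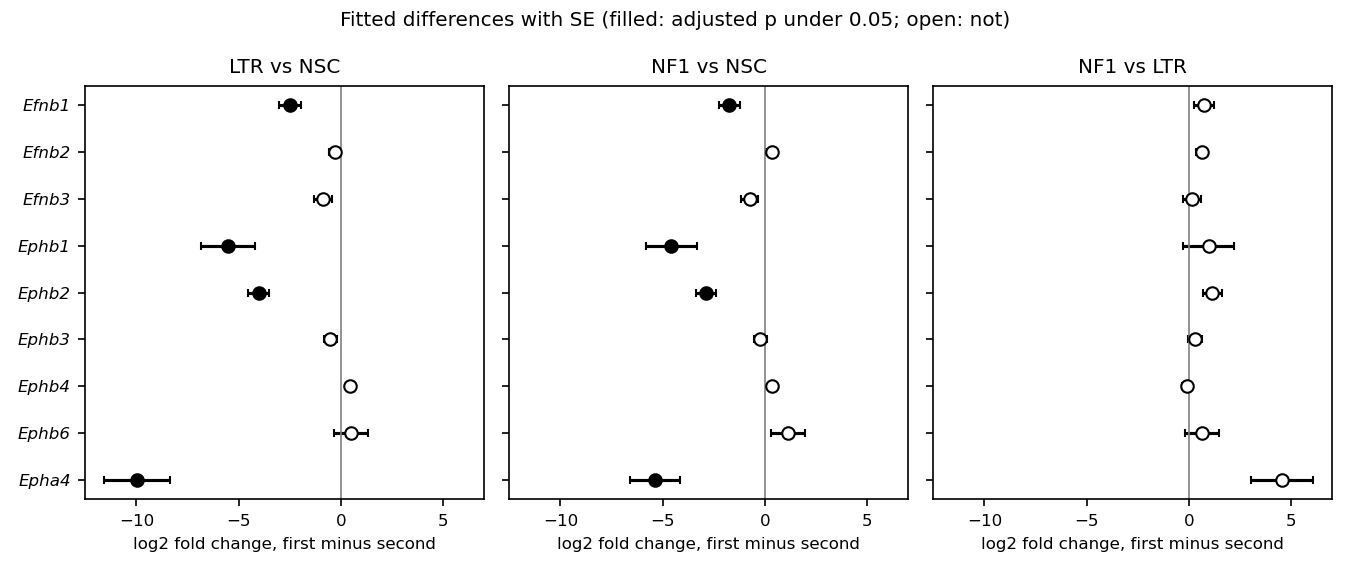
Fitted log2 fold change of each gene with its SE in each comparison, first-named group minus second, from the edgeR quasi-likelihood fit; filled points have an adjusted p under 0.05. Efnb1, Ephb1, Ephb2 and Epha4 are filled and negative against NSC in both tumour groups, and no point is filled for NF1 vs LTR.

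As a set, 4 of the 9 genes were lower in LTR than in NSC, Efnb1, Ephb1, Ephb2 and Epha4, beside 20.9% of all 15696 genes tested, and 0 were higher, beside 14.9% (35.9% in either direction). The same 4 were lower in NF1, beside 13.1% of all genes tested, and 0 were higher, beside 10.1% (23.1% in either direction). The NF1 count was 2 without NF1 1, NF1 3, NSC 1 or NSC 5, Efnb1 and Ephb1 being lost. Calls over all genes in those fits were 1898, 2373, 1752 and 1857, in that order, beside 3631 with all libraries. The count of 0 higher was also 0 by DESeq2 and limma-voom, and at an unadjusted p under 0.05 the genes that differed were those 4 in each comparison, beside 47.5% of all genes in LTR and 38.4% in NF1. Both comparisons use the same NSC libraries. Tumour and NSC libraries lay apart for 6 of the 9 genes in each comparison, beside 59.0% of all genes in LTR and 42.3% in NF1. Of these, 5 were lower, namely those 4 and Efnb3, beside 32.0% in LTR and 23.7% in NF1, and Ephb4 was higher, beside 26.9% in LTR and 18.7% in NF1. The median difference of the 9 was -0.89 in LTR, beside -0.06 over all genes, and -0.75 in NF1, beside 0.0.

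NF1 was then compared with LTR, which asks whether the tumour genotypes differ. None of the 9 genes passed by edgeR's quasi-likelihood test, beside 0.0% of all genes tested. None passed by DESeq2, which called 330 of 15196 genes, or by limma-voom, which called 1 of 15696. At an unadjusted p under 0.05 there were 3, Efnb2, Ephb2 and Epha4, beside 10.2% of all genes. Ephb2 was 1.15 ± 0.46 higher in NF1 on the log2 scale (unadjusted p = 0.033, adjusted p = 0.453) and Epha4 4.57 ± 1.52 (unadjusted p = 0.014, adjusted p = 0.384). Without NF1 2 these were 0.495 for Ephb2 (adjusted p = 0.874) and 1.35 for Epha4 (adjusted p = 0.91), and Efnb2 was 0.358 (adjusted p = 0.862). The other 6 differed by -0.11 to 0.96, and the libraries of NF1 and LTR overlapped for all 9, beside 12.5% of all genes whose libraries lay apart (7.21% higher and 5.24% lower in NF1). NF1 2 was the highest of the 6 tumour libraries for 7 of the 9 genes. It had 15.7 times the next tumour library for Epha4, 2.92 times for Efnb1 and 2.07 times for Ephb2. This library also stood apart over all genes, and the share of all genes highest in it was not counted. The 7 of 9 is thus not read as a trait of the set. Summed neural stem cell markers were also highest in NF1 2 among tumour libraries, at 3420 CPM, against 1240 CPM in the next, LTR 2. Most of that sum was Nes, at 2430 CPM in NF1 2. Pax6 went the other way, at 21.5 CPM in NF1 2, the lowest of the tumour libraries. Sox2, at 259 CPM, was lowest in NF1 2 among NF1 libraries. The part of these markers in the values of the 9 genes was not tested.

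The order of the genes within a group was read per kilobase of exon. Among LTR libraries Efnb2 came first at 23.3 CPM per kb, then Ephb4 (12.9), Ephb6 (3.49), Efnb1 (3.05), Ephb3 (2.41), Ephb2 (0.623), Efnb3 (0.395), Ephb1 (0.0228) and Epha4 (0.00844). The libraries overlapped between Ephb6 and Efnb1, Efnb1 and Ephb3, Ephb2 and Efnb3, and Ephb1 and Epha4, and other neighbours in that order lay apart. In NF1 the order was Efnb2 (36.2 CPM per kb), Ephb4 (11.99), Ephb6 (5.46), Efnb1 (5.13), Ephb3 (2.97), Ephb2 (1.38), Efnb3 (0.438), Epha4 (0.202) and Ephb1 (0.0426). Only Efnb2 and Ephb4, and Ephb2 and Efnb3, lay apart as neighbours there. In NSC it was Efnb2 (28.7 CPM per kb), Efnb1 (17.0), Ephb2 (10.1), Ephb4 (9.40), Epha4 (8.45), Ephb3 (3.47), Ephb6 (2.48), Ephb1 (1.02) and Efnb3 (0.734). Ephb2, Ephb4, Epha4, Ephb3 and Ephb6 each overlapped the next of these 5 in NSC, as did Ephb1 and Efnb3.

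Markers of cell types that such cultures could hold were read beside these values. Efnb2 and Ephb4 are known from blood vessels, so 8 endothelial markers were summed: 29.4 to 39 CPM in LTR and 24.5 to 163 CPM in NF1, against 6.54 to 8.36 CPM in NSC. Most of that was Flt1, at 155 CPM in NF1 2. Cdh5, a defining endothelial marker, was higher in the tumour libraries, at 0.623 to 1.28 CPM in LTR and 0.956 to 1.82 CPM in NF1, against 0.0541 to 0.322 CPM in NSC (adjusted p = 0.0176 in LTR and 0.012 in NF1). Kdr ran from 0.296 to 1.40 CPM in LTR and 0.137 to 4.61 CPM in NF1, against 1.06 to 3.0 CPM in NSC. The other 5 did not rise as Cdh5 did in both tumour groups. Cldn5 was at 0 in every library. Tie1 was at 0 in every tumour library and at most 0.0536 CPM in NSC. Emcn was at 0 in every tumour library but NF1 2 (0.064 CPM), and at most 0.253 CPM in NSC. Pecam1 overlapped, at 0.119 to 0.269 CPM in LTR and 0.102 to 0.256 CPM in NF1, against 0.0902 to 0.402 CPM in NSC. Tek ran from 0 to 0.267 CPM in LTR and 0 to 0.768 CPM in NF1, against 0.271 to 0.402 CPM in NSC. The part of endothelial markers in the Efnb2 and Ephb4 values was not tested. A list of 8 mural cell and fibroblast markers summed to 4.45 to 10.5 CPM in LTR and 6.96 to 49.3 CPM in NF1, against 1580, 233 and 1990 CPM in NSC 1, 3 and 5. Most of the NSC sum was Acta2 (165 to 918 CPM), Col1a1 (16.5 to 621 CPM) and Col1a2 (23.9 to 397 CPM). Lum, a defining fibroblast marker, was near the floor throughout, at 0 in every tumour library and 0.0529 to 0.0902 CPM in NSC. Rgs5 went the other way in NF1 2, at 38.4 CPM against at most 0.51 CPM in NSC. Epha4, like the mural sum, was lowest among NSC libraries in NSC 3. Its difference without NSC 3 was -10.2 in LTR and -5.71 in NF1. Summed astrocyte markers (6 genes) ran from 204 to 326 CPM in LTR and 219 to 461 CPM in NF1, against 799 to 840 CPM in NSC. Most of the tumour sums was Gja1, at 178 to 304 CPM in LTR and 199 to 386 CPM in NF1, against 209 to 334 CPM in NSC. Every other marker of that list lay lower in each tumour library than in any NSC library. Gfap, for example, was at 0.208 to 1.26 CPM in LTR and 0.341 to 22.3 CPM in NF1, against 86.4 to 153 CPM in NSC. Summed oligodendrocyte lineage markers (6 genes) ran from 61.4 to 119 CPM in LTR and 71.0 to 869 CPM in NF1, against 1850 to 2320 CPM in NSC. Neuron markers (6 genes) summed to 34.0 to 79.7 CPM in LTR, 38.9 to 53.2 CPM in NF1 and 43.1 to 51.0 CPM in NSC. Most of that was Tubb3 and Syn1, which overlapped between the groups. Gad1 was lower, at 0.114 to 0.296 CPM in LTR and 0.406 to 1.63 CPM in NF1, against 3.14 to 4.98 CPM in NSC. Dcx was lower too, at 0 to 0.0296 CPM in LTR and 0.029 to 0.0683 CPM in NF1, against 0.375 to 1.95 CPM in NSC. Snap25 overlapped between NF1 and NSC. Microglia markers (8 genes) summed to 7.32 CPM at most in any library. The astrocyte, oligodendrocyte lineage and mural sums, and Gad1 and Dcx, were lower in the tumour libraries, as were the 4 called genes. The part of these markers in those calls was not tested.

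Genes that act with Eph receptors and ephrins were taken as 4 lists of 45 genes, of which 42 were tested. LTR had 3 of these higher and 12 lower, with 27 that missed the threshold. NF1 had 5 higher and 5 lower, with 32 that missed it. Of all genes tested, 14.9% were higher and 20.9% lower in LTR (35.9% in either direction). In NF1 these shares were 10.1% and 13.1% (23.1% in either direction). Median differences were -0.49 in LTR and -0.17 in NF1, beside -0.06 and 0.0 over all genes tested. Calls were kept under every alternative for 6 of the 15 in LTR (Grb10, Vav3, Sipa1l1, Rgs3, Ptpn13 and Mmp2) and for 4 of the 10 in NF1 (Grb10, Rgs3, Ptpn13 and Mmp2). Leaving out single libraries gave 0 (without NSC 1 or NSC 5) to 7 (without NF1 2) higher in LTR, and 0 (without NSC 1 or NSC 5) to 6 in NF1, with 1 without NF1 1. It gave 7 (without LTR 2 or LTR 3) to 15 (without NF1 2) lower in LTR, with 8 without NSC 1 or NSC 3, and 4 to 15 (without NF1 2) lower in NF1. None passed between NF1 and LTR by edgeR's quasi-likelihood test.

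Among 12 tested partners of the ephrin-B or EphB cytoplasmic tail, 1 was higher and 3 lower in LTR, beside 14.9% and 20.9% of all genes. NF1 had 1 higher and 2 lower, beside 10.1% and 13.1%. Rgs3, a G protein regulator that binds the ephrin-B tail through its PDZ domain, measured 5.63, 5.15 and 5.61 CPM in LTR 1, 2 and 3, and 9.94, 8.80 and 6.59 CPM in NF1 1, 2 and 3, against 35.8, 23.5 and 31.8 CPM in NSC 1, 3 and 5. All tumour libraries lay below NSC, and Rgs3 fell in both groups, with a log2 difference of -2.47 in LTR (adjusted p = 0.000792) and -1.84 in NF1 (adjusted p = 0.00244). Ptpn13, a PDZ-containing tyrosine phosphatase that acts on ephrin-B, averaged 8.42 ± 0.856 CPM in LTR and 17.3 ± 13.9 CPM in NF1, against 195.1 ± 88.7 CPM in NSC. It fell in both groups, with -4.53 in LTR (adjusted p = 0.00153) and -3.5 in NF1 (adjusted p = 0.00448), the NF1 value being -4.36 without NF1 2. Grip1, a PDZ scaffold that binds the ephrin-B tail, measured 0.385, 0.572 and 0.985 CPM in LTR 1, 2 and 3, and 1.25, 14.7 and 0.137 CPM in NF1 1, 2 and 3, against 32.9, 23.1 and 28.9 CPM in NSC 1, 3 and 5. All tumour libraries lay below NSC. It fell in LTR (-5.44, adjusted p = 0.0137, and 0.0507 without LTR 2). Its NF1 difference was -2.4 (adjusted p = 0.155), and it passed without NF1 2 (-5.31, adjusted p = 0.000898). Sdcbp, which encodes the PDZ protein syntenin, rose in NF1 (0.66, adjusted p = 0.043), a call that held under 9 of 19 alternatives.

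The 5 tested proteases that cleave ephrins or Ephs included 3 lower genes in LTR and 1 in NF1, and none was higher. Of all genes, 20.9% were lower and 14.9% higher in LTR, and 13.1% lower and 10.1% higher in NF1. Mmp2, a matrix metalloproteinase, measured 0.474, 0.229 and 0.119 CPM in LTR 1, 2 and 3, and 0.145, 0.16 and 0.102 CPM in NF1 1, 2 and 3, against 45.9, 16.4 and 74.7 CPM in NSC 1, 3 and 5. Every tumour library was far below NSC, and Mmp2 fell in both groups (-7.35 in LTR, adjusted p = 0.000582, and -8.35 in NF1, adjusted p = 0.000509). Its NSC libraries fall in the same order as the mural cell and fibroblast markers, whose part in this was not tested. Adam10, the protease that sheds ephrins at contacts, averaged 185.7 ± 35.1 CPM in LTR and 260.7 ± 84.5 CPM in NF1, against 377.7 ± 59.2 CPM in NSC. It fell in LTR (-1.02, adjusted p = 0.0185), a call lost without LTR 2 (adjusted p = 0.0747), LTR 3 (0.0635) or NSC 3 (0.0636), and its NF1 difference was -0.53 (adjusted p = 0.176), which passed without NF1 2 (-0.77, adjusted p = 0.0383). Ncstn, the gamma-secretase subunit nicastrin, fell in LTR (-0.67, adjusted p = 0.0243), a call that held under 12 of 19 alternatives.

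Among 11 guanine nucleotide exchange factors and GTPase activators, 1 was higher and 4 lower in LTR, beside 14.9% and 20.9% of all genes. NF1 had 2 higher and 1 lower, beside 10.1% and 13.1%. Sipa1l1, a GTPase activator for Rap that binds Epha4, averaged 73.3 ± 12.4 CPM in LTR and 95.6 ± 42 CPM in NF1, against 302.7 ± 131 CPM in NSC. It fell in LTR (-2.05, adjusted p = 0.00716) and in NF1 (-1.66, adjusted p = 0.0219). In NF1 it no longer passed on leaving out NF1 1 (0.0652), NSC 1 (0.0765) or NSC 5 (0.073), or in a fit of only the 6 libraries compared (0.0566). Vav3, an exchange factor bound by Eph receptors, averaged 38.0 ± 6.69 CPM in LTR and 77.6 ± 52.9 CPM in NF1, against 160.2 ± 82.6 CPM in NSC. It fell in LTR (-2.08, adjusted p = 0.0121, and -1.45 without NSC 3). Its NF1 difference was -1.05 (adjusted p = 0.141), which passed without NF1 2 (-1.76, adjusted p = 0.00613). Chn1, the Rac GTPase activator alpha-chimaerin that acts downstream of Epha4, measured 227, 209 and 262 CPM in LTR 1, 2 and 3, and 296, 118 and 321 CPM in NF1 1, 2 and 3, against 52.2, 109 and 50.04 CPM in NSC 1, 3 and 5. Its tumour libraries all lay above NSC, though NF1 2 only just above NSC 3. Chn1 rose by 1.73 in LTR (adjusted p = 0.0126) and by 1.8 on the log2 scale in NF1 (adjusted p = 0.0155). In LTR it missed the threshold on leaving out NSC 1 (0.0532) or NSC 5 (0.0511), and in NF1 on leaving out NF1 1 (0.0544), NF1 3 (0.0566), NSC 1 (0.0662) or NSC 5 (0.0635). Itsn2, a scaffold with Cdc42 exchange activity, rose in NF1 (1.12, adjusted p = 0.0236), a call that held under 15 of 19 alternatives.

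Among 14 tested cytoplasmic kinases and adaptors, 1 was higher and 2 lower in LTR, beside 14.9% and 20.9% of all genes. NF1 had 2 higher and 1 lower, beside 10.1% and 13.1%. Grb10, an adaptor of receptor tyrosine kinases and an imprinted gene, had 5, 118 and 4 counts in LTR 1, 2 and 3 (0.148, 4.50 and 0.119 CPM), and 3, 1 and 0 counts in NF1 1, 2 and 3, against 62.0, 32.8 and 68.8 CPM in NSC 1, 3 and 5. All tumour libraries lay below NSC, with LTR 2 the highest of them. It fell in LTR (-5.13, adjusted p = 0.012, and -8.52 without LTR 2) and in NF1, where the fitted -10.24 (adjusted p = 0.00387) rests on 4 counts in all and depends on the prior count. The adaptor gene Nck1 averaged 48.6 ± 5.25 CPM in LTR and 54.0 ± 12.3 CPM in NF1, against 29.6 ± 1.04 CPM in NSC. Nck1 rose by 0.72 on the log2 scale in LTR (adjusted p = 0.0237) and by 0.87 in NF1 (adjusted p = 0.0163). In LTR it missed the threshold with no filter on low counts (0.0519) and on leaving out LTR 2 (0.0535), LTR 3 (0.0505), NSC 1 (0.0741) or NSC 5 (0.0744), and in NF1 on leaving out NF1 3 (0.0583), NSC 1 (0.0609) or NSC 5 (0.0612). Its relative Nck2 rose in NF1 (0.58, adjusted p = 0.0408, held under 11 of 19 alternatives). Fyn, a Src-family kinase of ephrin-B and Eph signalling, fell in LTR (-1.0, adjusted p = 0.0332, held under 14 of 19 alternatives).

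**Figure D4:**
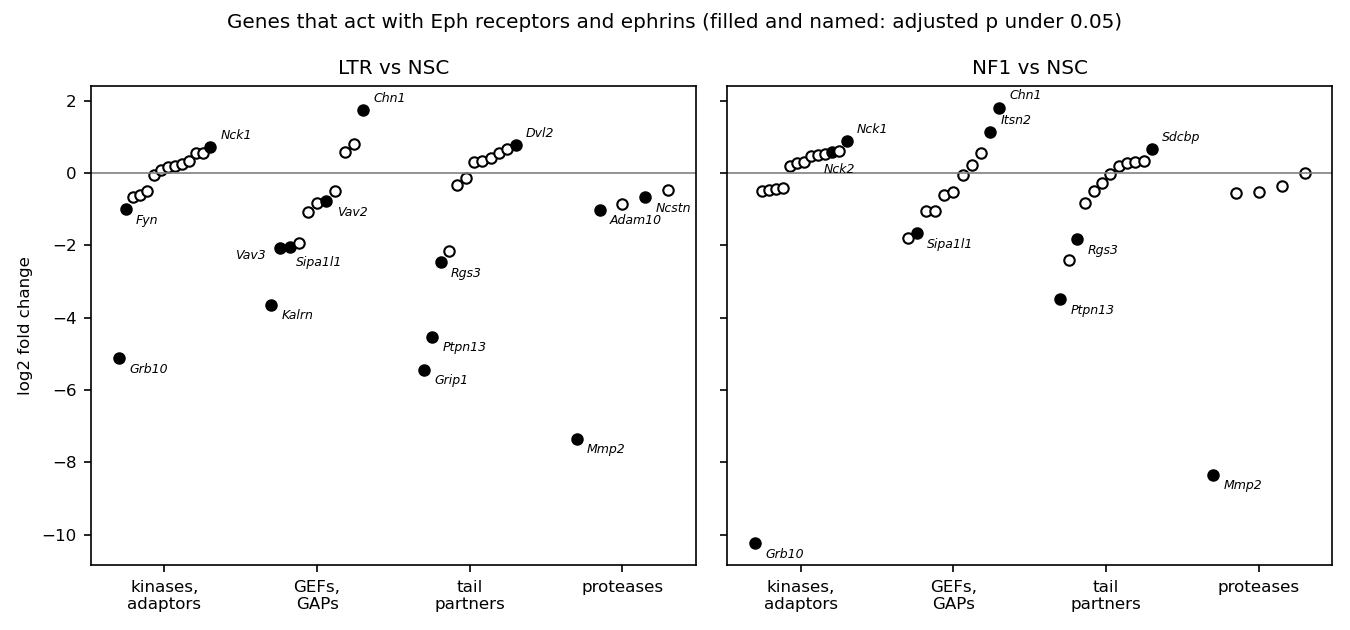
Log2 fold change of the 42 tested genes that act with Eph receptors and ephrins, in 4 lists, for LTR against NSC (left) and NF1 against NSC (right); genes are ordered within a list by their difference, and filled points with names have an adjusted p under 0.05. Mmp2, Ptpn13, Rgs3 and Grb10 are filled and negative in both, and Chn1 and Nck1 filled and positive in both.

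The genes most alike in pattern were found among 11954 genes with a mean of at least 1 CPM by the root mean square difference of log2 CPM (prior count 0.5), each gene centred on its mean over the 9 libraries, so that 0 means the same profile. Efnb2 was nearest to Spsb1 (0.14), Etnk1 (0.16) and Elmod2 (0.17). Efnb1 was nearest to Trp53inp2 (0.20), Cpeb3 (0.20) and Ppm1k (0.21), and Ephb2 to Diras2 (0.28), Camk2b (0.31) and Slc2a9 (0.33). Ephb1 and Epha4 had no match as close: Ephb1 was nearest to Pcdhga8 (0.72), Dhdh (0.93) and Tox3 (0.93), and Epha4 to Kcna6 (0.68), Lsamp (0.69) and Mlc1 (0.70). Among the 9 genes themselves the closest pair was Efnb2 and Ephb3 (0.37), and of the 4 lower genes Efnb1 and Ephb2 (0.66). These distances describe 9 libraries that share groups and depth, and carry no test.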

How the data were processed

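The authors deposited unnormalised read counts for each gene. Tools listed in the submitters' processing notes, with no role stated, are HTSeq, STAR (2.5.2a) and DESeq2 (1.8.2), with the builds mm10 and GRCm38. Which annotation release, counting mode and strand applied is not stated in the sources used here. Library preparation used the NEBNext Ultra RNA kit on total RNA, per the labels' protocols. All value columns were used. Within groups, libraries differed by far more than sampling noise (chi-square over its degrees of freedom, 14.4 to 436.3).

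One model of 3 groups was fitted to all 9 libraries in R 4.3.3 with edgeR 4.0.16 (TMM scaling, filterByExpr with a minimum count of 10, quasi-likelihood F test, Benjamini-Hochberg over 15696 genes, threshold 0.05). Fold changes carry a prior count of 0.125. SEs were derived from F. Levels per kilobase use exon lengths from GENCODE M21 on GRCm38, which holds 47224 of the 47729 IDs. Alternatives were DESeq2 1.42.0, limma-voom (limma 3.58.1), 3 other scalings, 2 other filters, fits to the 6 libraries of a contrast, a block for replicate number, leaving out each library, and NF1 2 with NSC 3 left out. The fit was tested on simulated data.

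The genes and lists were chosen with earlier results of these data known. All 9 genes are named, with the 3 called genes of smallest adjusted p in each pathway list and comparison, and the 3 most alike genes for called genes and Efnb2. Cell type markers were read as values, with a test result printed for Cdh5 alone, and no marker list was tested.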

Additional observations from a re-analysis of the deposited data

How the results depend on the processing

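The number of the 9 genes called stayed at 4 in LTR under every alternative except the filter of 10 CPM in 3 libraries, where Ephb1 was not tested (3), and without both NF1 2 and NSC 3 (5). In NF1 it was 3 with that filter and 3 with only the 6 libraries compared, and 2 to 4 when single libraries were left out, 2 without NF1 1, NF1 3, NSC 1 or NSC 5. Between NF1 and LTR it was 0 throughout. Over all genes, leaving out single libraries gave 3281 (without NSC 1) to 7640 (without NF1 2) calls in LTR, beside 5634, 1752 (without NSC 1) to 6900 (without NF1 2) in NF1, beside 3631, and 0 to 34 for NF1 over LTR. NF1 had 2103 calls with the 10 CPM filter and 7485 without both NF1 2 and NSC 3. NF1 over LTR, with 0 calls, had 52 with no filter, 104 without both, 1 by limma-voom and 330 by DESeq2. The cause of these shifts was not tested. Same-numbered cultures showed little shared deviation (correlations of deviations 0.122, 0.016 and -0.158 between LTR and NF1). LTR 1 correlated best with its own number (0.122 with NF1 1 and 0.081 with NSC 1), but not every library did. Deviations from means of 3 libraries cannot exclude a pairing. The labels name none, so the main fit used none. With the replicate number as a block 3477 genes were called in LTR, 1942 in NF1 and 0 between them, with 4, 4 and 0 of the 9. Of the pathway genes described, the block fit did not call Nck1 (adjusted p = 0.116), Adam10 (0.0645), Ncstn (0.069) and Fyn (0.0726) in LTR, nor Sipa1l1 (0.0691), Nck1 (0.0953), Nck2 (0.249), Itsn2 (0.069) and Sdcbp (0.255) in NF1. Family shares taken from counts in place of CPM per kb moved beyond 1 SD in 15 of 24 cases. Of the fold changes of the 9 genes, 165 of LTR kept direction and side of the threshold under an alternative, 1 passed newly and 3 changed sign. In NF1 156 were kept, 11 no longer passed and 2 changed sign, and between NF1 and LTR 158 were kept and 9 changed sign. Each value that changed sign belonged to a gene that did not pass in that comparison. For Ephb6 in LTR these were -0.255 with the block, -0.946 without LTR 1 and -0.0295 by limma-voom, and in NF1 -0.00322 without NF1 2. For Ephb3 in NF1 it was 0.00437 without NF1 3. For NF1 over LTR, Efnb1 was -0.197, Ephb1 -1.19 and Ephb6 -0.503 without NF1 2, and -0.202, -1.17 and -0.523 without both. Efnb3 was -0.0657 without LTR 2 and -0.0459 without NF1 3, and Ephb4 0.0181 without LTR 2. Leaving out single libraries gave -0.946 to 1.01 for Ephb6 in LTR, and -0.417 to 0.00437 for Ephb3 and -0.00322 to 1.49 for Ephb6 in NF1. For NF1 over LTR it gave -0.197 to 1.04 (Efnb1), -0.0657 to 0.351 (Efnb3), -1.19 to 3.11 (Ephb1), -0.273 to 0.0181 (Ephb4) and -0.503 to 2.09 (Ephb6). Depth limits Ephb1 and Epha4 in the tumour libraries, where counts were few.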
